A study of Mus musculus with 6 samples.

Results

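The 10 genes described here encode transcription factors known for setting the identity and the effector programmes of regulatory T (Treg) cells. They were chosen by gene identifier (ID), as Foxp3, Ikzf2, Ikzf3, Ikzf4, Irf4, Batf, Prdm1, Maf, Gata3 and Rora, out of the 54446 gene IDs in each file. The rule uses no measured value, and all 10 passed the filter on low counts that left 15615 genes for the test. The study recovered RNA bound to YTHDF2 (RNA immunoprecipitation sequencing, RIP-seq) and set it against total RNA, which poses for each of these mRNAs the question of whether it is over- or under-represented among YTHDF2-bound transcripts. The 2 groups were 3 libraries of the YTHDF2 immunoprecipitation (IP), made with an anti-mouse YTHDF2 antibody, and 3 libraries of the Input, made without antibody from the 10% of lysate set aside. The IP took 4 hours and 6 washes, which are not listed for the Input, so handling also differed between the 2 groups. Both came from wild-type mice whose Treg cells carry a Foxp3-GFP reporter and that bore subcutaneous B16F10 tumours, a mouse melanoma line; the cells were sorted from the tumours as live, CD45+, CD4+ and GFP+. The age and sex of the mice, the number of tumours per library and whether tumours were pooled are unknown here, so the p-values below cover the variation among 6 libraries, part or all of which may be technical. An IP with a control antibody or from cells without YTHDF2 was not analysed here.

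YTHDF2 is a cytoplasmic reader of N6-methyladenosine (m6A), a methyl mark on mRNA, and brings deadenylases to the transcripts it binds, which are then degraded. Foxp3 is the forkhead factor that defines the Treg lineage. In tumours and other tissues, Treg cells take on an activated, effector state that depends on factors such as IRF4, BATF and Blimp-1, the product of Prdm1. Transcription factor mRNAs are often short-lived, so their decay can bear on how fast a cell changes state.

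None of the 10 mRNAs was called enriched or depleted in the YTHDF2 IP. The test was the quasi-likelihood F-test of edgeR over all 15615 genes, with a call at a Benjamini-Hochberg adjusted p under 0.05. The adjusted p-values of the members ran from 0.125 for Ikzf3 to 0.972 for Irf4. In the same test, 4.33% of all tested genes were enriched and 6.11% depleted. Without Input replicate 3, Input replicate 2 or IP replicate 1 these shares were 1.09% and 3.26%, 1.40% and 3.56%, and 1.94% and 4.62%. Without IP replicate 2 or Input replicate 1 they were 2.08% and 4.62%, and 2.03% and 3.98%. Without IP replicate 3 they rose, to 5.25% and 8.73%. The fits with 1 library left out tested 17025 to 19027 genes. With all 6 libraries, the shares were 14.7% and 16.9% among the 3904 most abundant genes, where 9 of the 10 members lay. These are the genes from the upper quartile of the mean level upwards (49.9 CPM, the read count scaled to a common library size). The members' log2 fold changes of IP over Input ran from -1.11 for Batf to 0.52 for Rora. Their median was -0.10, against -0.12 for all tested genes and 0.10 for these abundant genes. The nearness of the first 2 medians holds in this setting and not in all others: in limma voom, on the same genes, they were -0.16 and -0.57. At an unadjusted p under 0.05, 1 member lay higher in the IP (Ikzf2) and 2 lay lower (Ikzf3 and Maf), where 10.0% of all tested genes lay higher and 13.9% lower by the same rule, and 27.7% and 24.6% of the abundant genes. DESeq2's Wald test also called 0 of the 10, where it called 6.63% of the genes with an adjusted p enriched and 10.0% depleted. Some other scalings, filters and tests, and some fits with 1 library left out, did call members, as given below.

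Under the TMM scaling of edgeR, the fits also bound how large a difference could have been missed. For 9 of the 10 members the upper end of the 95% interval of the fold, IP over Input, lay under 2, and the exception was Rora with 2.26. For 8 of the 10 the lower end lay above a 2-fold reduction, and the exceptions were Batf with a lower end of 0.202 and Maf with 0.430. These intervals are relative to that scaling, which assumes that most genes do not differ between IP and Input. The counts of members above were obtained under it alone, and other scalings move the intervals. Reads assigned to no gene make up more of the IP files than of the Input files, 71.2% to 72.1% against 49.6% to 51.6%. With library sizes that include those reads, 4 members (Foxp3, Ikzf3, Maf and Gata3) were depleted and 0 enriched, in a fit that called 11.7% of all tested genes depleted and 0.942% enriched. That scaling moved the median over all genes by -0.53 on the log2 scale, over 16455 tested genes in place of 15615. With upper quartile factors 1 member (Ikzf2) was enriched, in a fit that called 6.92% of genes enriched and 5.13% depleted. In limma voom, which called 5.74% and 11.1%, Ikzf2 was enriched and Ikzf3 depleted. The shares in these alternative fits cover all tested genes. Shares among the abundant genes, which in the setting reported were larger (14.7% and 16.9%), were not obtained for them.

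The files held 6847731 to 8465453 gene-assigned reads per IP library and 10029733 to 14704617 per Input library, and the members 76 to 22420 reads in a library. The libraries are bulk, so a level does not tell fewer expressing cells from less RNA per cell. The spread between IP libraries was wider than between Input libraries for 9 of 10 members, with a median coefficient of variation of 30.0% in the IP and 9.62% in the Input. For the abundant genes the medians were 24.2% and 11.6%. The fewest gene IDs with a read were listed by IP replicate 3, 14200, against 18501 and 19991 in the other IP libraries and 26250 to 33344 in the Input libraries. The part of this in the members' values was not tested, and results that turn on that library are given without it as well.

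**Figure D1:**
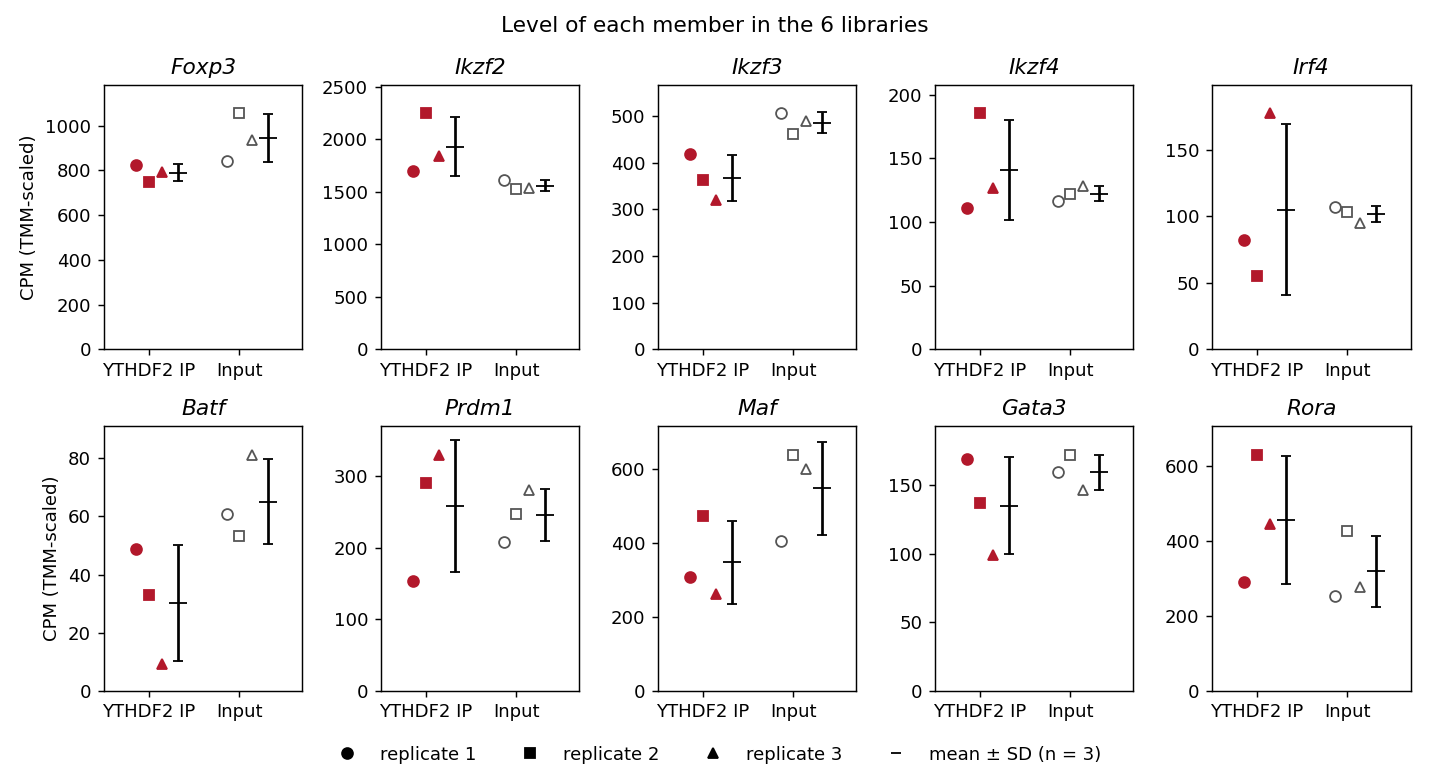
Level of each gene (CPM, TMM-scaled, vertical axes starting at 0) in the 3 YTHDF2 IP libraries (filled) and the 3 Input libraries (open), with the mean ± SD of each group (n = 3) as a bar; marker shapes give the replicate number. The groups do not overlap for Foxp3, Ikzf2, Ikzf3 and Batf, and the IP libraries spread most for Batf and Irf4.

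Foxp3 (ENSMUSG00000039521.12), the factor by which the cells were sorted, was present at a high level in both groups. It had 7041, 5162 and 6692 reads in the IP libraries 1 to 3, and 11705, 9998 and 10809 reads in the Input libraries 1 to 3. Scaled for library size these were 824, 749 and 795 CPM in the IP, and 844, 1055 and 936 CPM in the Input. Every IP library lay below every Input library, but IP replicate 1 and Input replicate 1 were only 19.3 CPM apart. On the log2 scale the difference of IP over Input was estimated at -0.26 ± 0.13 (SE; adjusted p = 0.276, edgeR). The 95% interval of the fold was 0.681 to 1.02. Foxp3 was also the 1 member whose IP libraries varied less than its Input libraries, with coefficients of variation of 4.79% and 11.2%. Under the scaling to all reads in a file, Foxp3 was depleted, with a log2 fold change of -0.78 (adjusted p = 0.00292, edgeR). As CPM of all those reads it had 207, 191 and 209 in the IP, and 319, 375 and 350 in the Input. The direction was the same under every scaling tried, and its size depended on the scaling. The gene lies on the X chromosome at chrX:7579676-7595243 (RefSeq annotation of GRCm38.p6, the assembly that mm10 names), where it overlaps Flicr, a long noncoding RNA gene, and Ccdc22, a protein-coding gene, so that reads of these loci may have been shared or set aside as ambiguous.

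The Ikaros family holds zinc finger factors that act largely as repressors or partners of other factors. Helios, the product of Ikzf2, stabilises Treg identity, Eos, the product of Ikzf4, works with Foxp3 in gene silencing, and Aiolos, the product of Ikzf3, is linked to silencing of the Il2 gene. Ikzf2 (ENSMUSG00000025997.13) had the highest IP level relative to Input of the 3, after Rora the second of all members. It had 1704, 2249 and 1840 CPM in the IP, and 1616, 1524 and 1541 CPM in the Input. All IP libraries lay above all Input libraries, the lowest IP library by 87.3 CPM. The estimate was 0.31 ± 0.13 (SE) on the log2 scale, a fold of 1.24 with a 95% interval of 1.01 to 1.51 (adjusted p = 0.184, edgeR). It was called enriched with upper quartile factors (log2 fold change 0.51, adjusted p 0.0333) and in limma voom (0.28, adjusted p 0.0441), and it turned to -0.22 (adjusted p 0.367) with library sizes from all reads. Over the 16 alternatives that gave it a value its adjusted p ran from 0.0333 to 0.687.

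Ikzf3 (ENSMUSG00000018168.8) lay on the other side. It had 418, 363 and 320 CPM in the IP, and 505, 461 and 489 CPM in the Input. Each IP library was below each Input library, and the Input libraries were close together, with a coefficient of variation of 4.60%. Its log2 fold change was -0.40 ± 0.15 (SE), a fold of 0.756 with a 95% interval of 0.599 to 0.954. Its adjusted p of 0.125 in edgeR's test was the lowest of the 10 members. The direction was negative in all 16 alternatives, and 2 of them called it depleted, with adjusted p-values of 0.00279 with library sizes from all reads and 0.0500 in limma voom, which is just under the threshold.

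Ikzf4 (ENSMUSG00000002578.17) had 111, 185 and 127 CPM in the IP, and 116, 122 and 128 CPM in the Input. The groups overlapped, and IP replicate 2 alone stood above all Input libraries by a wide margin. Its log2 fold change was 0.21 ± 0.23 (SE; adjusted p = 0.698, edgeR). Without IP replicate 2 it was -0.08, and it was -0.32 under the scaling to all reads, so no direction can be given for Ikzf4.

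Non-overlap of the 2 groups, as for Foxp3, Ikzf2, Ikzf3 and Batf, is frequent in these data. The IP lay wholly above the Input for 12.8% of all tested genes and wholly below for 23.7%, and for 28.5% and 27.9% of the abundant genes. Among the members 1 lay wholly above (Ikzf2) and 3 wholly below (Foxp3, Ikzf3 and Batf).

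The effector factors differed in the spread among the IP libraries. IRF4, an interferon regulatory factor induced by T cell receptor signals, and BATF, an AP-1 family factor, bind DNA together at composite sites. Batf (ENSMUSG00000034266.6) had 417, 226 and 76 reads in the IP libraries 1 to 3, and 842, 504 and 939 reads in the Input libraries 1 to 3. In CPM these were 48.8, 32.8 and 9.03 in the IP, and 60.7, 53.2 and 81.3 in the Input. The IP libraries were all below the Input libraries, and IP replicate 3 was far below the other 2. The estimate, a log2 fold change of -1.11 ± 0.53 (SE), was the lowest of the members (adjusted p = 0.249, edgeR). The 95% interval of the fold, 0.202 to 1.07, was wide. Without IP replicate 3 the log2 fold change was -0.70 (adjusted p = 0.157, edgeR), and without IP replicate 1 it was -1.68 (adjusted p = 0.126, edgeR). The direction was negative in all 16 alternatives, and 0 of them called it. The adjusted p over these alternatives ran from 0.0533 to 0.519.

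Irf4 (ENSMUSG00000021356.10) showed the opposite pattern within the IP. It had 702, 381 and 1496 reads in the IP libraries 1 to 3, and 1486, 981 and 1101 reads in the Input libraries 1 to 3. In CPM these were 82.2, 55.3 and 178 in the IP, and 107, 104 and 95.4 in the Input. IP replicate 3, the lowest IP library for Batf, was the highest library of all for Irf4, while the other 2 IP libraries lay below every Input library. Over all libraries Irf4 had a log2 fold change of 0.04 ± 0.38 (SE; adjusted p = 0.972, edgeR). Without IP replicate 3 the value was -0.60 (adjusted p = 0.131, edgeR). Among IP libraries the coefficient of variation was 61.2%, against 5.90% among Input libraries. The sign for Irf4 also turned in 6 of the other 15 alternatives, so the data do not place it above or below the Input.

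Prdm1 (ENSMUSG00000038151.13) encodes Blimp-1, a repressor found in effector Treg cells. It had 154, 291 and 331 CPM in the IP, and 209, 248 and 282 CPM in the Input. The lowest library and the highest were both IP libraries. For Prdm1 the log2 fold change was 0.07 ± 0.27 (SE; adjusted p = 0.928, edgeR). It was 0.29 without IP replicate 1 and -0.18 without IP replicate 3.

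Maf (ENSMUSG00000055435.6) encodes c-Maf, a basic leucine zipper factor that promotes Il10 expression. It had 308, 474 and 261 CPM in the IP, and 404, 639 and 598 CPM in the Input. The groups overlapped through a single pair, as IP replicate 2 lay above Input replicate 1. Maf had a log2 fold change of -0.66 ± 0.25 (SE), a fold of 0.635 with a 95% interval of 0.430 to 0.938 (adjusted p = 0.138, edgeR). Leaving out either of these 2 libraries, which made the overlap, gave a call of depletion in edgeR's test. Without IP replicate 2 the log2 fold change was -0.98 (adjusted p = 0.0491), and without Input replicate 1 it was -0.92 (adjusted p = 0.0424). In those fits 4.62% and 3.98% of all tested genes were depleted. Leaving out any other library gave no call. Without IP replicate 3 the log2 fold change was -0.52 (adjusted p = 0.173, edgeR). Without IP replicate 1, Input replicate 2 or Input replicate 3 it was -0.62, -0.62 and -0.68 (adjusted p = 0.242, 0.251 and 0.242, edgeR). The adjusted p over its 16 alternatives ran from 0.00127, without a filter on low counts, to 0.306, with upper quartile factors. The direction was negative in each of them, and 5 of them called Maf depleted. The replicate block was 1 of these (adjusted p = 0.0146, edgeR), although the labels do not say that equal numbers share a lysate.

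Gata3 and Rora are lineage factors of other lymphocytes that also act in Treg cells of tissues. GATA3 directs type 2 helper T cells, and RORα is a nuclear receptor needed for type 2 innate lymphoid cells. Gata3 (ENSMUSG00000015619.10) had 169, 137 and 98.6 CPM in the IP, and 159, 172 and 147 CPM in the Input. The IP library 1 lay among the Input libraries and the other 2 below them. Gata3 had a log2 fold change of -0.24 ± 0.23 (SE; adjusted p = 0.631, edgeR). It was -0.09 without IP replicate 3 and -0.48 without IP replicate 1.

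Rora (ENSMUSG00000032238.17) had the highest log2 fold change of the 10. It had 291, 631 and 445 CPM in the IP, and 252, 427 and 276 CPM in the Input. In both groups replicate 2 was the highest library, and Input replicate 2 lay above IP replicate 1, so the groups overlapped. Its value was 0.52 ± 0.29 (SE; adjusted p = 0.342, edgeR), and the 95% interval of the fold ran from 0.908 to 2.26. Within each replicate number, the log2 ratios of IP to Input were 0.21, 0.56 and 0.69. The estimate was 0.17 without IP replicate 2 and 0.71 without IP replicate 1, and it was 0.0019 with library sizes from all reads. The adjusted p over the 16 alternatives ran from 0.0501, with a replicate block (log2 fold change 0.49), to 0.999, with library sizes from all reads.

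**Figure D2:**
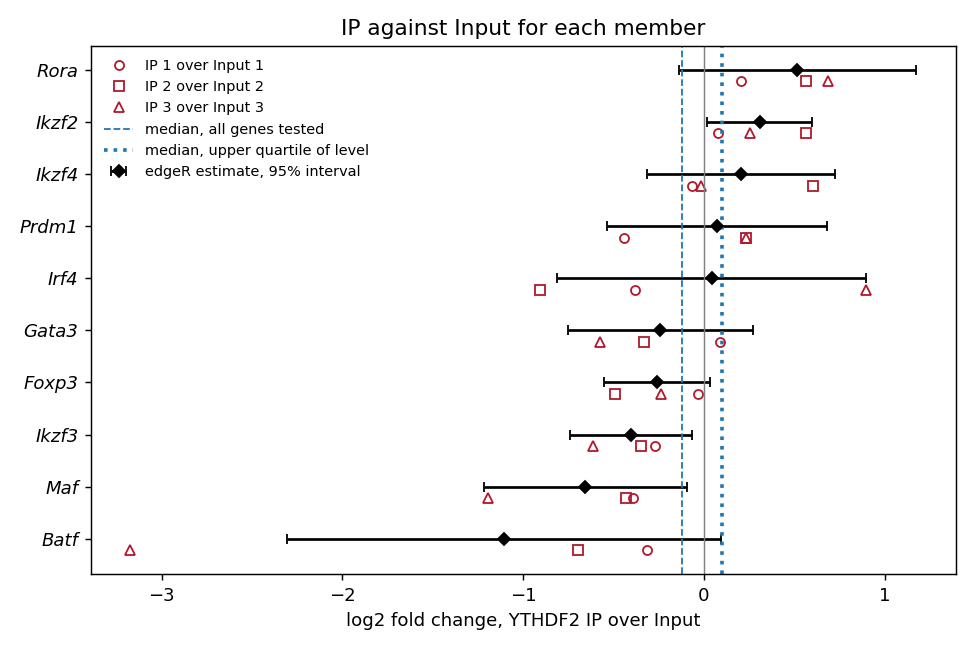
Log2 fold change of YTHDF2 IP over Input for each gene (black diamonds, edgeR estimate with its 95% interval) and the log2 ratio of CPM within each replicate number (red open markers); dashed and dotted lines give the median of all genes tested (-0.12) and of the abundant genes (0.10). The genes run from Rora at 0.52 to Batf at -1.11, and the intervals of Ikzf2, Ikzf3 and Maf leave out 0 before adjustment for the 15615 genes tested.

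The 10 genes can also be set against each other within a library, a measure that does not depend on how the libraries are scaled. For each of 13 pairs, the ratio of read counts (with 1 read added to each) was compared between IP and Input. The counts are not corrected for transcript length, so a ratio does not say which mRNA is the more abundant. The exact two-sided permutation test over libraries cannot give a p under 0.1 here, and 3 pairs reached that value, with adjusted p-values of 0.433 over the 13 pairs. Reaching it means only that the ratios do not overlap between IP and Input. Non-overlap was found for 30.9% of all pairs of tested genes and for 56.3% of all pairs of abundant genes.

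For each read of Foxp3 there were 2.07, 3.00 and 2.32 reads of Ikzf2 in the IP libraries, and 1.92, 1.44 and 1.65 in the Input libraries. The IP ratios were higher than each Input ratio, by 1.47-fold on average (exact permutation p = 0.1, adjusted p = 0.433, n = 3 per group). The ratio of Ikzf2 to Ikzf3 was the most even in the Input. It was 4.07, 6.20 and 5.75 in the IP, and 3.20, 3.30 and 3.15 in the Input, an average difference of 1.63-fold with no overlap (exact permutation p = 0.1, adjusted p = 0.433, n = 3 per group). The ratio of Ikzf3 to Ikzf4 went the other way, with 3.77, 1.96 and 2.52 in the IP, and 4.35, 3.78 and 3.81 in the Input. These values do not overlap, although the values of IP replicate 1 and Input replicate 2 are nearly equal (exact permutation p = 0.1, adjusted p = 0.433, n = 3 per group).

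The other 10 pairs overlapped. Ikzf2 and Ikzf4 had overlapping ratios, 15.3, 12.1 and 14.5 in the IP, and 13.9, 12.5 and 12.0 in the Input. Irf4 and Batf were the pair most affected by a single library: the ratio was 1.68 in IP replicates 1 and 2 and 19.4 in IP replicate 3, and 1.76, 1.94 and 1.17 in the Input. The mean log2 difference of this ratio was 1.26, and 0.08 without IP replicate 3. For Batf per read of Foxp3 it was -1.13, and -0.42 without that library. Rora had 0.352, 0.842 and 0.561 reads per read of Foxp3 in the IP, and 0.299, 0.404 and 0.295 in the Input, with overlap between IP replicate 1 and Input replicate 2. Gata3 per Foxp3 read had nearly the same mean in both groups, with a log2 difference of -0.02. Over all 45 pairs that the 10 genes form, 8 had ratios that did not overlap between IP and Input. Of all pairs of tested genes 30.9% had such ratios, and of all pairs of abundant genes 56.3%.

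**Figure D3:**
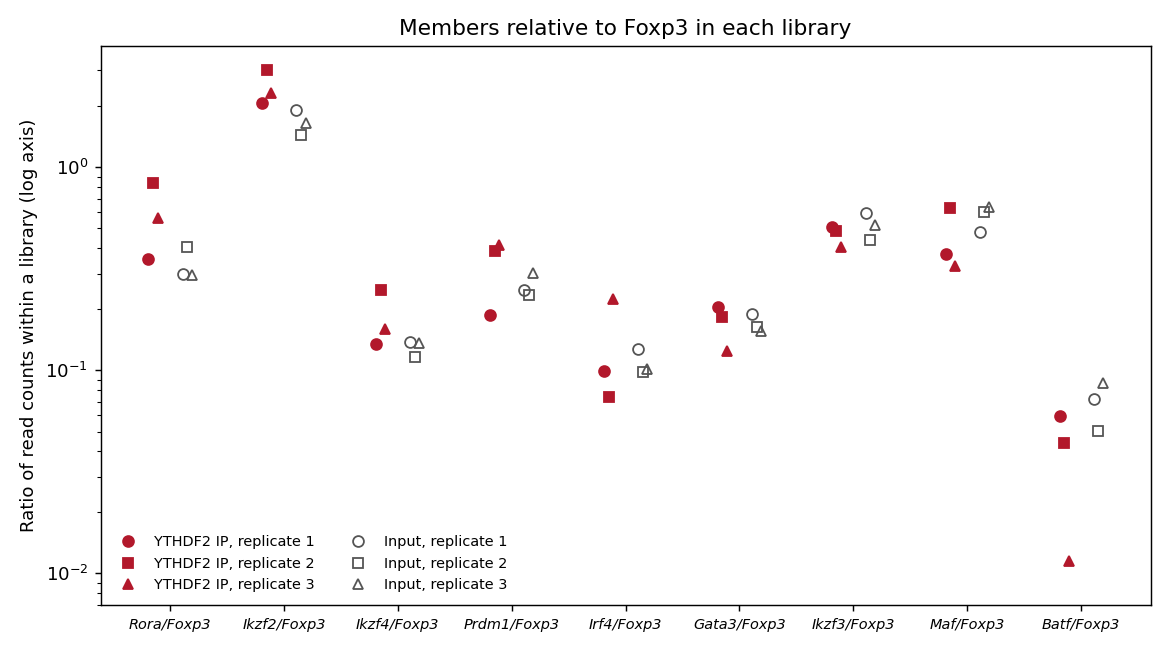
Reads of each gene per read of Foxp3 in each library (vertical log axis), with YTHDF2 IP libraries filled and Input libraries open, and marker shapes for the replicate number. Only Ikzf2 has IP values wholly apart from the Input values, and IP replicate 3 stands alone for Batf at 0.0115 and for Irf4 at 0.224.

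Within replicate numbers, the log2 ratios of IP to Input kept 1 sign in all 3 numbers for 6 of the 10 genes. They were positive for 2 (Ikzf2 and Rora) and negative for 4 (Foxp3, Ikzf3, Batf and Maf). Over all tested genes 18.0% were positive and 31.0% negative in all 3 numbers, and over the abundant genes 36.8% and 32.4%. The ratios were 0.08, 0.56 and 0.26 for Ikzf2, and -0.27, -0.35 and -0.61 for Ikzf3. For Batf they were -0.31, -0.70 and -3.17, and for Maf -0.39, -0.43 and -1.20. The labels do not say that libraries of equal number share a lysate, so these are descriptions.

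In position the genes have little in common. By the RefSeq annotation of GRCm38.p6 they lie on 9 chromosomes, and Ikzf4 and Prdm1 share chromosome 10 at distant places, chr10:128630839-128669671 and chr10:44437174-44528558. Their spans differ widely, from 3.64 kb for Maf at chr8:115703253-115706894 to 735 kb for Rora at chr9:68653404-69388246. The gene with the longest span had the highest log2 fold change, and Ikzf2, with the next longest at 156 kb (chr1:69531207-69687351), the second highest. Spearman's rho between span and log2 fold change over the 10 genes was 0.73, and 0.55 over the 8 genes other than Rora and Maf. The points share the same 6 libraries, and a span includes introns, so it does not give the length of the mRNA. Ikzf3 (chr11:98464610-98546031) has a long span as well, 81.4 kb, and a negative log2 fold change. Batf (chr12:85686720-85709087) and Irf4 (chr13:30749233-30766981) have spans of 22.4 and 17.7 kb and overlap no other RefSeq gene. Gata3 (chr2:9857078-9887953) overlaps 2 long noncoding RNA genes, Rora 5 and Ikzf4 2, and Ikzf3 overlaps a pseudogene, Gm25106. The strand setting of the counting is not known here, so reads of these loci may not be separate.

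**Figure D4:**
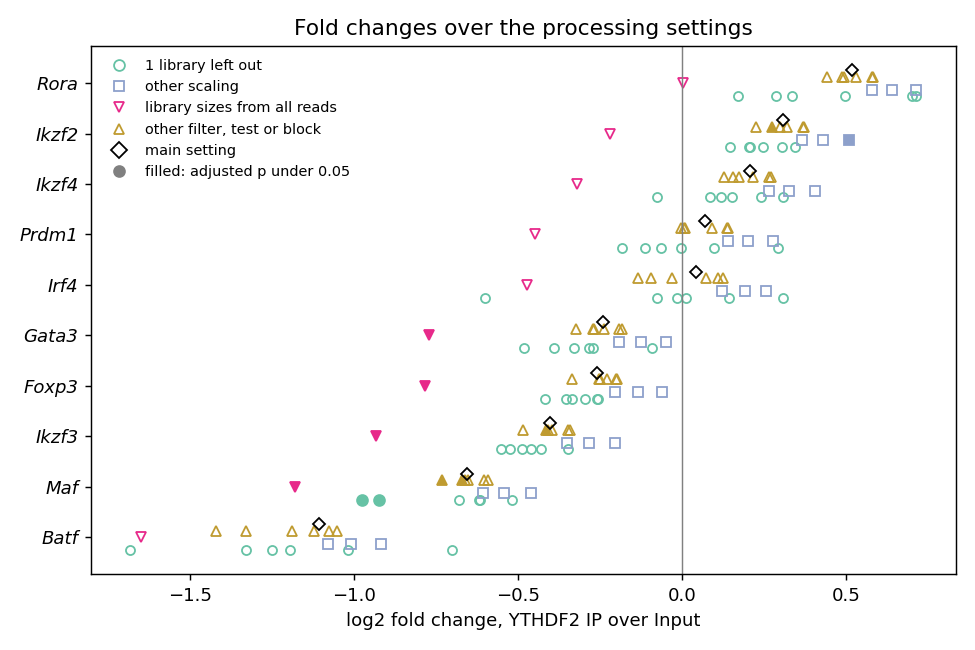
Log2 fold change of YTHDF2 IP over Input for each gene under each processing setting (filled markers: adjusted p under 0.05). Black diamonds are the values reported above, and with library sizes from all reads (magenta triangles) every gene has a lower value than that reported, with Foxp3, Ikzf3, Maf and Gata3 called; Irf4, Prdm1, Ikzf4 and Ikzf2 have values on both sides of 0.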

How the data were processed

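RIP-seq read counts of 6 libraries (3 YTHDF2 IP, 3 Input) were analysed. The values deposited by the authors are raw counts per Ensembl gene ID, in separate files for the libraries. Trimmomatic 0.39, HISAT2 2.1.0, HTSeq and DESeq2 were used with build mm10, per the submitters' processing notes, without their roles, the annotation release or the strand setting. The 5 summary categories of HTSeq, 74.7% to 75.8% of the reads in the IP files and 60.0% to 62.4% in the Input files, and 92 spike-in IDs stayed out of library sizes and tests. Gene IDs and summary categories together made up the reads of each file to within rounding. The spike-in IDs thus held next to none of the reads and offered no scaling between IP and Input. Counts were tested here on the whole table with edgeR 4.0.16 in R 4.3.3 (filterByExpr, TMM, robust quasi-likelihood F-test, group as the only term, Benjamini-Hochberg over all genes tested); SE and 95% intervals come from the F statistics. CPM values use TMM-scaled library sizes. Ratios of 2 genes within a library were compared by exact permutation tests (scipy 1.17.1). Alternatives were other scalings, filters and tests (DESeq2 1.42.0, limma 3.58.1), a replicate block and leaving out each library.

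The members, lists and tests were chosen with earlier results of these data known. All 10 members are named, by the pairing of symbol and ID given with the list; RefSeq gave positions by symbol, and 0 of its 49997 rows held an Ensembl ID. Lists of other Treg transcription factors and of cell type markers, which need that link, were therefore not tested. Replicates of a group differed by more than sampling noise (chi-square of at least 12.6 per degree of freedom). Intervals cover neither scaling nor other choices of processing.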

Additional observations from a re-analysis of the deposited data

How the results depend on the processing

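Of the 10 members, 0 were called enriched and 0 depleted in the setting reported, and 0 with total counts, DESeq2 size factors, both filters by level, DESeq2's Wald test and the test against a 1.5-fold change. Upper quartile factors gave 1 enriched (Ikzf2), where 6.92% of all genes were enriched. In limma voom 1 was enriched and 1 depleted (Ikzf2 and Ikzf3), where 5.74% of all genes were enriched and 11.1% depleted. Library sizes from all reads gave 4 depleted, where 11.7% of all genes were depleted. No filter on low counts gave 1 depleted (Maf), where 3.29% of all genes were depleted. A replicate block gave 1 depleted (Maf, log2 fold change -0.67, adjusted p 0.0146), where 7.01% of all genes were depleted. Deviations of libraries of equal number correlated at 0.130, 0.0399 and 0.0250 over all tested genes and at 0.343, 0.189 and 0.039 over the abundant genes. These were not above 0.1 for each pair, so equal numbers were not treated as pairs. Low correlations over 3 libraries per group cannot show that the libraries are unpaired. Over all tested genes IP replicate 3 correlated about equally with Input replicate 2, at 0.0251, and with its own number. Libraries of unequal number correlated at -0.270 to 0.0783 over the abundant genes, below the equal-number values of replicates 1 and 2. Leaving out 1 library gave 0 to 1 depleted and 0 enriched members; the call was Maf without IP replicate 2 or Input replicate 1, where 4.62% and 3.98% of all genes were depleted. The other sign was found with library sizes from all reads for Ikzf2 (-0.22), Ikzf4 (-0.32), Irf4 (-0.47) and Prdm1 (-0.45); for Irf4 without a filter (-0.031), in limma voom (-0.095) and with a replicate block (-0.13); for Prdm1 without a filter (-0.0033). With 1 library left out, Irf4 ran from -0.60 to 0.31, Prdm1 from -0.18 to 0.29 and Ikzf4 from -0.077 to 0.31. Foxp3, Ikzf3, Batf, Maf, Gata3 and Rora kept their sign in all 16 alternatives. Of the within-library ratios, Irf4 to Foxp3 had a log2 difference of 0.13 and ran from -0.33, without IP replicate 3, to 0.46 with 1 library left out, and Gata3 to Foxp3 (-0.02) ran from -0.17 to 0.20, positive without IP replicate 3 or, at 0.06, without Input replicate 1; with these numbers of libraries the ratio tests could not pass in any setting, so their 0 calls show nothing about stability. For these differences between settings, the cause was not tested. On the same genes, the median over all genes moved by 0.20 on the log2 scale with upper quartile factors and by 0.12 with total counts. It moved by -0.45 in limma voom and by -0.38 with the block, also on the same genes. Over other sets of genes, it moved by -0.20 and -0.15 without IP replicate 1 and 2. It moved by -1.20 without a filter, by -0.68 with DESeq2, by 0.18 with 1 CPM in all libraries and by 0.11 with a mean count of 50, over other sets as well.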
